A study of Mus musculus with 8 samples.

Results

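The genes described here are 9 oncogenes and tumour suppressors of the RAS, MYC, p53 and INK4 pathways, grouped under CT26 carcinoma cells. These are Hras, Nras, Braf, Myc, Trp53, Mdm2, Cdkn1a, Cdkn2a and Cdkn2b. They are not markers of tumour cells alone, since both groups of libraries described below held their RNA. They were taken by symbol from the deposited gene tables, where all 9 are among 45706 listed genes. Natural killer (NK) cells were sorted with magnetic beads and flow cytometry from BALB/c mice inoculated under the skin with CT26_β2m-/- cells, and their polyadenylated RNA was sequenced. CT26 is a colon carcinoma line of the mouse, here deficient in β2-microglobulin and thus in MHC class I. There were 4 libraries titled tuNK, for NK cells of the tumour, and 4 titled spNK, for NK cells of the spleen of mice bearing that tumour. Both groups share the tumour genotype and the strain, and the labels give no treatment, age or sex, leave unsaid if the deficient line is 1 clone, and leave unsaid if each replicate is another mouse. P-values therefore measure only the spread between these libraries, which may be technical.

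In every sample the tissue tag and the source name give the opposite tissue to the title. The groups hold the same libraries by either reading. The columns of the deposited values are named SPNK and TUNK, as the titles are, and directions here follow the titles. Library totals of the estimated counts ran from 38745733 to 45404059 in tuNK and from 40560781 to 53886933 in spNK. NK cell markers were present in all libraries, and 10 of 10 were lower in tuNK (summed CPM, counts scaled to a common library size, of 3895 to 5511 in tuNK and 12330 to 17490 in spNK). All 30 of 30 leukocyte-wide genes were lower, by a median of -1.64 on the log2 scale. Of 13 mesenchymal markers, 13 were higher in tuNK (3213 to 4824 CPM in tuNK and 92.5 to 149 CPM in spNK). Of 7 epithelial markers, 4 of the 6 tested were higher (47.1 to 67.9 CPM in tuNK and 1.23 to 10.1 CPM in spNK), and the 7 did not move alike. Krt18 averaged 31.2 CPM in tuNK and 1.63 CPM in spNK, Cdh17 11.8 CPM in tuNK and 0.222 CPM in spNK, and Krt20 9.41 CPM in tuNK and 0 in spNK. Epcam, Krt8, Cdh1 and Vil1 averaged 0.762, 0.823, 0.729 and 0 CPM in tuNK, and 0.292, 0.115, 1.71 and 0.0407 CPM in spNK. Erythroid marker RNA was lower in tuNK, at 0.362 to 1.94 CPM in tuNK and 180 to 758 CPM in spNK. Of 8 tested macrophage and monocyte markers, 3 were lower and 1 higher in tuNK. Among these markers Cd14 averaged 60.4 CPM in tuNK and 0.280 CPM in spNK. B2m was at 1727 to 2166 CPM in tuNK and 1695 to 2345 CPM in spNK. How far RNA of tumour or other cells enters the levels given here was not tested. In bulk RNA, fewer cells of a type and less RNA per cell cannot be told apart.

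RAS proteins such as those of Hras and Nras are small GTPases that pass growth factor signals to the kinase B-Raf and on to the ERK cascade. Myc is a transcription factor that drives ribosome production and cell growth. The protein p53, made from Trp53, stops the cell cycle or kills damaged cells, partly through the CDK inhibitor p21 made from Cdkn1a, and Mdm2 marks p53 for degradation. Cdkn2a encodes the CDK4 and CDK6 inhibitor p16INK4a and, from another first exon, p19ARF, which blocks Mdm2, while the neighbouring Cdkn2b encodes p15INK4b. CT26 cells are known to have lost Cdkn2a by deletion. NK cells divide when activated by cytokines, and Myc is part of that response.

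RefSeq promoter windows on GRCm38.p6, from 250 bases before to 50 bases after a start site, were found for 8 of the 9 genes, not for Myc, with 10 windows in all. The windows of the CDK inhibitor genes are shown because Cdkn1a and Cdkn2b carry the largest changes and Cdkn2a adjoins Cdkn2b. Capitals mark matches to the GC box GGGCGG, the E-box CACGTG, the TATA box TATAAA, the AP-1 site TGANTCA and the p53 decamer motif, all searched on both strands. Of the 32851 windows of the same length in the table, 35.7% held a GC box, 7.15% an E-box, 13.6% a TATAAA, 7.81% an AP-1 site and 8.36% a p53 decamer. The upstream start of Cdkn1a lies at chr17:29090729-29091028 (plus strand) and the downstream start at chr17:29093519-29093818 (plus strand).
Cdkn1a upstream start: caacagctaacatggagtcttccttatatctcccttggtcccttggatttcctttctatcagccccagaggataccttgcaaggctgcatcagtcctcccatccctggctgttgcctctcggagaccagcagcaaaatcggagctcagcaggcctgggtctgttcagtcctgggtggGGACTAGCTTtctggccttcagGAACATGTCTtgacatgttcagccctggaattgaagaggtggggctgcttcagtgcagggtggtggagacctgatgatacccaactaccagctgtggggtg
Cdkn1a downstream start: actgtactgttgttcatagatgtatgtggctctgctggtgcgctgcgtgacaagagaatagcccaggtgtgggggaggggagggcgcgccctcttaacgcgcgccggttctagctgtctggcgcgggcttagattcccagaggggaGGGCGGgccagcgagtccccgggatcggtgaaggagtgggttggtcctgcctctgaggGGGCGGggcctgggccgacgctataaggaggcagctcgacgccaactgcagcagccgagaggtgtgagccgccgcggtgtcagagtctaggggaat
The upstream window held 2 matches to the p53 decamer and no GC box, E-box, TATAAA or AP-1 match. The second of these matches begins 51 bases before the upstream start and 2841 bases before the downstream start. The downstream window held 2 GC boxes and no other match.

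The INK4 windows lie on the minus strand of chromosome 4, at chr4:89294570-89294869 for the outer start of Cdkn2a, chr4:89282143-89282442 for its inner start and chr4:89310983-89311282 for Cdkn2b.
Cdkn2a outer start: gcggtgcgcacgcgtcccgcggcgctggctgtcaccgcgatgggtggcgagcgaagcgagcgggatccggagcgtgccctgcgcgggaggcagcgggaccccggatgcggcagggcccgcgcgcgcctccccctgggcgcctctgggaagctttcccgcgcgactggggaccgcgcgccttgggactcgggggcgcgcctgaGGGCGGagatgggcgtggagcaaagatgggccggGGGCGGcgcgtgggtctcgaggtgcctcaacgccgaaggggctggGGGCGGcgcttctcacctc
Cdkn2a inner start: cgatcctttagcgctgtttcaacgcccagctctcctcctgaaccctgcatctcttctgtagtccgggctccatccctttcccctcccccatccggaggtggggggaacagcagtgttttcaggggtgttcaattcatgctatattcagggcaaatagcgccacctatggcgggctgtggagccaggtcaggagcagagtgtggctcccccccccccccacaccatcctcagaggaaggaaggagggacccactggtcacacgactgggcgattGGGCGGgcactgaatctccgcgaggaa
Cdkn2b start: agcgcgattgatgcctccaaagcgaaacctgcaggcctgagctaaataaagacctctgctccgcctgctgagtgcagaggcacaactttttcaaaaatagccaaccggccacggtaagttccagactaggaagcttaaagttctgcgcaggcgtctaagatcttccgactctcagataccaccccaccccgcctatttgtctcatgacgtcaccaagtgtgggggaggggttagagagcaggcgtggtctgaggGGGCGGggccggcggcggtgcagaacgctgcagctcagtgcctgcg
The outer Cdkn2a window held 3 GC boxes and 77% G and C, against 1 GC box and 60.3% in the inner window and 1 GC box and 57.7% in the Cdkn2b window. None of the 3 windows held another of the motifs searched. Among the other genes, an E-box lay in the windows of Nras and Trp53, and a p53 decamer in those of Mdm2 and Trp53. A match describes the letters only.

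Setting tuNK beside spNK asks what intratumoral NK preparations express differently from splenic ones. Cdkn1a was 21.6-fold higher in tuNK, Hras was 1.76-fold higher, Nras and Trp53 were 1.22-fold and 1.36-fold higher, and Myc was higher by 0.59 on the log2 scale. Cdkn2b, at low counts, was 12.3-fold lower. Braf, Mdm2 and Cdkn2a did not pass the test. At an adjusted p (Benjamini-Hochberg, over 14006 genes) under 0.05, the quasi-likelihood test of edgeR called 6 of the 9 genes (66.7%), beside 69.6% of all genes. It called 5 higher, beside 35.6% of all genes, and 1 lower, beside 34% of all genes. The median log2 fold change of the 9 was 0.45, and that of all genes tested was 0.019. All 9 passed the filter on low counts. Cdkn2b did so only through its spNK libraries, so its call, the 1 lower, does not test direction. The groups did not overlap in 4 of the 9 (67.1% of all genes), with tuNK above in 3 (34.4% of all genes) and below in 1 (32.7% of all genes).

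**Figure D1:**
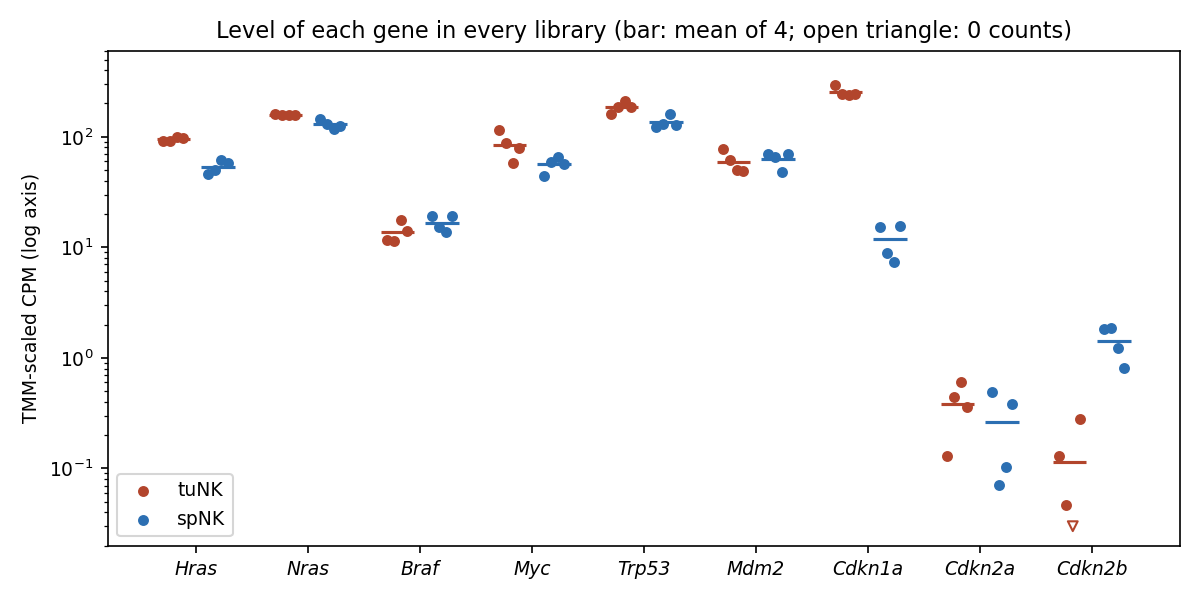
Level of each gene in TMM-scaled CPM (log axis) in the 4 tuNK (red) and 4 spNK (blue) libraries, with the group mean as a bar and an open triangle for a library with 0 counts. Cdkn1a sits between 238 and 294 CPM in tuNK and between 7.37 and 15.6 CPM in spNK, while the other genes differ far less, apart from Cdkn2b near the bottom of the axis.

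A second scaling was used because the leukocyte genes were lower in tuNK. When each library was scaled to 30 leukocyte-wide genes, the median over all genes moved by 1.71 on the log2 scale, to 1.73. On that scale all 9 genes were called (84.9% of all genes), 8 higher (78.7% of all genes) and 1 lower (6.18% of all genes). Values on that scale are called leukocyte-scaled.

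**Figure D2:**
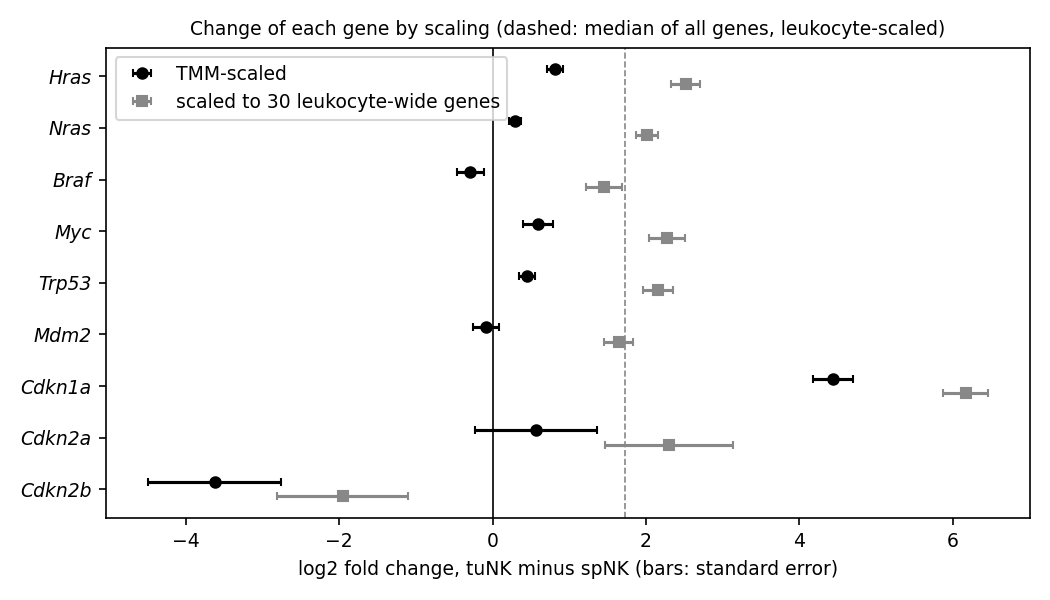
Log2 fold change of each gene, tuNK minus spNK, with its standard error, after TMM scaling (black circles) and after scaling to 30 leukocyte-wide genes (grey squares). The dashed line marks the median of all genes on the second scale, 1.73, and Cdkn1a lies far above it at 6.17 while Cdkn2b lies below 0 at -1.95.

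By length-corrected abundance (TPM, the share of all transcripts after correction for length), Cdkn1a was the most abundant of the 9 in tuNK and ranked sixth in spNK. In tuNK the mean TPM ran from Cdkn1a (155 ± 31.1, SD, n = 4) through Trp53 (109 ± 4.85), Hras (105 ± 9.73), Nras (89.4 ± 7.97), Myc (41.5 ± 14.4), Mdm2 (23.2 ± 7.55), Braf (2.48 ± 0.468) and Cdkn2a (0.516 ± 0.234) to Cdkn2b (0.0899 ± 0.0922). Within tuNK the ranges of Trp53 and Hras, of Hras and Nras, and of Myc and Mdm2 overlapped, so these neighbours were not separated by the spread of the libraries. In spNK the order was Trp53 (95.1 ± 9.96 TPM), Hras (67.9 ± 5.40), Nras (61.0 ± 8.95), Myc (31.9 ± 4.05), Mdm2 (30.03 ± 4.00), Cdkn1a (7.68 ± 2.88), Braf (3.83 ± 1.53), Cdkn2b (1.33 ± 0.474) and Cdkn2a (0.430 ± 0.349). There the ranges of Hras and Nras, of Myc and Mdm2, of Cdkn1a and Braf, and of Cdkn2b and Cdkn2a overlapped.

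Hras and Nras were both higher in tuNK. By counts Hras differed more, while on log2(TPM + 1) the differences were 0.62 for Hras and 0.55 for Nras. Hras (ENSMUSG00000025499, chromosome 7, 141189105 to 141194005, minus strand, GRCm38), which encodes H-Ras, stood at 90.8, 90.7, 99.6 and 97.6 CPM in tuNK 1 to 4, against 46.1, 49.7, 61.4 and 58.1 CPM in spNK 1 to 4. Every tuNK library lay above every spNK library. Hras thus rose by 0.81 ± 0.10 on the log2 scale (SE; edgeR adjusted p = 3.99e-05), and by 2.52 leukocyte-scaled.

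Nras (ENSMUSG00000027852, chromosome 3, 103058285 to 103067914, plus strand), which encodes the paralogue N-Ras, stood at 162, 159, 158 and 156 CPM in tuNK, against 145, 131, 118 and 124 CPM in spNK. The groups did not overlap, but the step was small, and tuNK 4 exceeded spNK 1 by little. The log2 fold change was 0.29 ± 0.080 (edgeR adjusted p = 0.00694), 2.02 leukocyte-scaled, and it was not called with scaling by library size alone (0.13, adjusted p = 0.189). By TPM the same gene stood at 79.6 to 97.9 in tuNK and 49.6 to 71.3 in spNK, a wider step than by counts. The count divided by the TPM, relative to that of 750 genes with a single annotated transcript, was 0.975 to 1.08 for Nras in tuNK and 1.11 to 1.79 in spNK, so the transcript length that Salmon assigned to Nras was shorter in tuNK. GENCODE M21 lists 9 Nras transcripts, of 276 to 4470 bases.

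Braf (ENSMUSG00000002413, chromosome 6, 39603237 to 39725463, minus strand), which encodes the RAF kinase activated by RAS, stood at 11.7, 11.4, 17.6 and 14.1 CPM in tuNK, against 19.0, 15.2, 13.7 and 19.1 CPM in spNK. The groups overlapped, with tuNK 3 and 4 inside the spNK range and tuNK 1 and 2 below it. The log2 fold change was -0.29 ± 0.18 (95% interval -0.69 to 0.11; edgeR adjusted p = 0.176). Without tuNK 3 it was called lower (-0.44, adjusted p = 0.0447), also with scaling by library size alone (-0.46, adjusted p = 0.0346), and leukocyte-scaled it was called higher (1.45, adjusted p = 7.75e-05). The relative transcript length of Braf varied from 2.45 to 3.92 in tuNK and from 2.24 to 4.21 in spNK, which limits its TPM. On the opposite strand Braf overlaps Ndufb2, at 43.9 CPM in tuNK and 34.4 CPM in spNK, and no source used here gives the strand setting of the counting.

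Myc (ENSMUSG00000022346, chromosome 15, 61985391 to 61990374, plus strand) varied widely among the tuNK libraries. It stood at 115, 88.3, 57.6 and 78.9 CPM in tuNK 1 to 4, against 44.4, 59.1, 65.7 and 56.9 CPM in spNK. Of the 4 tuNK libraries, tuNK 3 lay inside the spNK range and the other 3 lay above it. The log2 fold change was 0.59 ± 0.20 (edgeR adjusted p = 0.0209), and 2.28 leukocyte-scaled. The call was lost without tuNK 1 (0.39, adjusted p = 0.0646), without tuNK 2 (0.56, adjusted p = 0.0553), without spNK 1 (0.48, adjusted p = 0.063), with scaling by library size alone (0.43, adjusted p = 0.0979) and on log2(TPM + 1) with limma (0.32, adjusted p = 0.203). The library tuNK 1 also held the most mesenchymal marker RNA, at 4824 CPM beside 3257, 3213 and 3571 CPM in tuNK 2 to 4. Its epithelial marker RNA was the lowest of tuNK, at 47.1 CPM beside 52.8, 51.2 and 67.9 CPM. The part of either RNA in the Myc value was not tested.

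Trp53 (ENSMUSG00000059552, chromosome 11, 69580359 to 69591873, plus strand), which encodes p53, stood at 159, 185, 209 and 187 CPM in tuNK, against 123, 130, 159 and 129 CPM in spNK. The lowest tuNK library, tuNK 1, met the highest spNK library, spNK 3, and the other libraries did not overlap. Trp53 thus rose by 0.45 ± 0.11 on the log2 scale (edgeR adjusted p = 0.00344), and 2.15 leukocyte-scaled. On log2(TPM + 1) with limma it was 0.20 and was not called (adjusted p = 0.0655).

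Mdm2 (ENSMUSG00000020184, chromosome 10, 117688875 to 117710758, minus strand), the ubiquitin ligase for p53 and itself a p53 target, stood at 77.1, 61.4, 50.1 and 49.2 CPM in tuNK, against 70.5, 65.3, 47.7 and 69.2 CPM in spNK. The ranges largely coincided, with tuNK 1 the highest library and spNK 3 the lowest. The log2 fold change was -0.087 ± 0.17 (95% interval -0.46 to 0.28; edgeR adjusted p = 0.659). Leukocyte-scaled it was called higher (1.64, adjusted p = 4.41e-06). With spNK 3 and tuNK 1 both left out Mdm2 was called lower (-0.36, edgeR adjusted p = 0.0138). Leaving out its lowest spNK and highest tuNK library lowers the difference by itself, so this call tests nothing further. With any 1 library left out Mdm2 was not called (edgeR adjusted p = 0.159 to 0.965).

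Cdkn1a (ENSMUSG00000023067, chromosome 17, 29090976 to 29100727, plus strand), which encodes the CDK inhibitor p21, had the largest rise. It stood at 294, 245, 238 and 242 CPM in tuNK, against 15.3, 8.91, 7.37 and 15.6 CPM in spNK. All tuNK libraries lay far above all spNK libraries, and the highest was tuNK 1. That library had the highest mesenchymal marker sum of tuNK but the lowest epithelial one, at 47.1 CPM. The part of either RNA in the Cdkn1a value was not tested. The log2 fold change of Cdkn1a was 4.43 ± 0.26 (95% interval 3.85 to 5.02; edgeR adjusted p = 4.13e-07), and 6.17 leukocyte-scaled. It stayed between 4.25 and 4.59 when any 1 library was left out, and by size it ranked 1369 among 14006 genes tested. The relative transcript length of Cdkn1a was 0.931 to 0.974 in tuNK and 1.05 in all spNK libraries at 3 digits. GENCODE M21 lists 5 transcripts of 922 to 2080 bases. Some begin at or near the upstream start and others at or near the downstream start shown above. Another, of 1172 bases, begins farther downstream, at 29097900. Which of these transcripts were used was not tested. The 3 genes with the most similar profile over the 8 libraries, after centring log2 CPM, were AA414768, Itga3, an integrin subunit, and Src, a tyrosine kinase, with root mean square differences of 0.20, 0.29 and 0.31. Such likeness rests mainly on the difference between the groups.

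The INK4 locus was low in both groups. Cdkn2a (ENSMUSG00000044303, chromosome 4, 89274471 to 89294653, minus strand) had 5, 19, 24 and 14 counts in tuNK 1 to 4, against 21, 4, 5 and 17 counts in spNK 1 to 4. The groups overlapped in part, with tuNK 3 above every spNK library and spNK 2 below every tuNK library. By counts, spNK 3 and tuNK 1 were level at 5. The log2 fold change was 0.57 ± 0.79 (95% interval -1.18 to 2.32; edgeR adjusted p = 0.542), and the interval reaches further above 0 than below it. Leukocyte-scaled it was called higher (2.30, adjusted p = 0.0217). Gene-level counts do not separate the p16INK4a and p19ARF transcripts.

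Cdkn2b (ENSMUSG00000073802, chromosome 4, 89306299 to 89311039, minus strand) had 5, 2, 0 and 11 counts in tuNK, against 79, 104, 60 and 36 counts in spNK. The sums were 18 counts in tuNK and 279 counts in spNK, and the highest tuNK library stayed below the lowest spNK library. In tuNK 3 the count of 0 allows up to 3 counts, or 0.0763 CPM, by counting error alone. For Cdkn2b the log2 fold change was -3.62 ± 0.86 (edgeR adjusted p = 0.00319), -1.95 leukocyte-scaled (adjusted p = 0.0499), and it ranged from -4.56 to -3.23 when any 1 library was left out. Because Cdkn2b passed the filter on low counts only through its spNK libraries, these adjusted p do not test direction. The genes with the most similar profile were Panct2, Csgalnact1 and Kiss1r, at root mean square differences of 0.51, 0.55 and 0.59, and all 3 averaged at most 0.242 CPM in tuNK and at most 2.12 CPM in spNK. The libraries of spNK also held the erythroid RNA given above, whose part in the Cdkn2b value was not tested.

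Ratios between these genes within a library do not depend on how libraries are scaled to each other. Of 5 ratios of TPM, 3 differed between the groups by a two-sided exact permutation test over 70 assignments, at the smallest p the design allows, 0.0286 (adjusted p = 0.0476 over the 5 ratios). The ratios of Cdkn1a to Trp53 and to Mdm2 share Cdkn1a, whose groups already lay far apart by CPM. They restate that difference and are not independent tests, and the adjusted p of all 3 rests in part on counting both. The log2 ratio of Cdkn1a to Trp53 was 0.49 ± 0.30 in tuNK and -3.71 ± 0.69 in spNK (SD, n = 4 each), a difference of 4.20 in favour of tuNK. Cdkn1a thus stood at 1.17 to 1.88 times Trp53 in tuNK and at 0.0427 to 0.114 times Trp53 in spNK. The log2 ratio of Cdkn1a to Mdm2, a pair of p53 targets, was 2.77 ± 0.17 in tuNK and -2.04 ± 0.50 in spNK. Braf to Nras was lower in tuNK, at -5.19 ± 0.38 in tuNK and -4.06 ± 0.54 in spNK, a difference of -1.13 that was -0.59 by counts in place of TPM.

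The other 2 ratios did not pass. Mdm2 to Trp53 was -2.28 ± 0.46 in tuNK and -1.67 ± 0.32 in spNK (difference -0.62, exact permutation p = 0.0857, adjusted p = 0.107), with tuNK 1 inside the spNK range. Hras to Nras was 0.23 ± 0.052 in tuNK and 0.16 ± 0.19 in spNK (difference 0.063, exact permutation p = 0.571, adjusted p = 0.571). By counts, which do not use the transcript length that differed for Nras, Hras to Nras was higher in tuNK by 0.53 (exact permutation p = 0.0286, adjusted p = 0.0357).

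**Figure D3:**
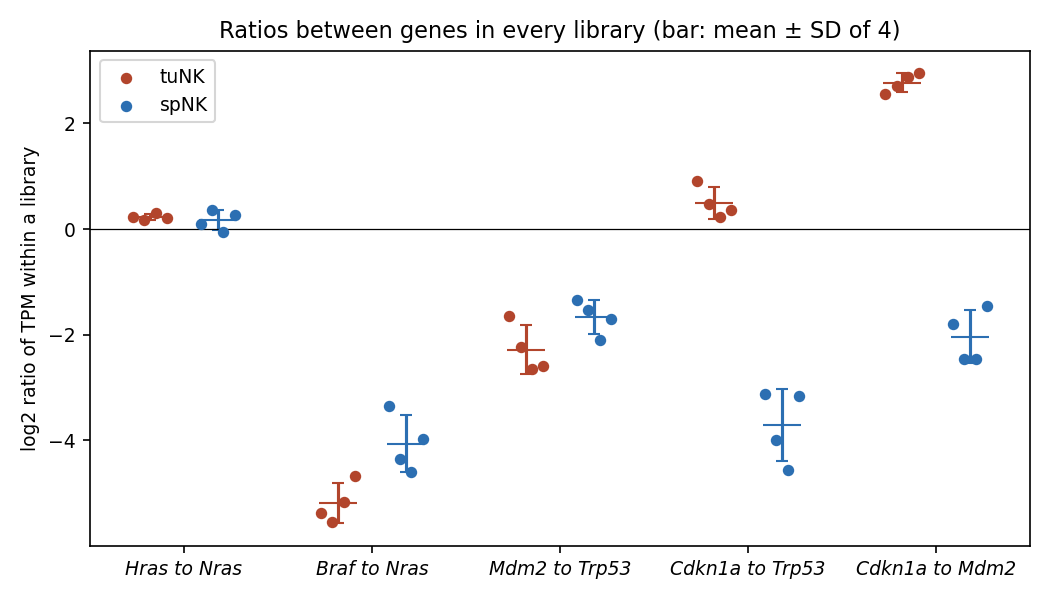
Log2 ratio of TPM between pairs of genes within each tuNK (red) and spNK (blue) library, with mean ± SD of 4. The ratios of Cdkn1a to Trp53 and to Mdm2 are positive in all 4 tuNK libraries and negative in all 4 spNK libraries, while Hras to Nras overlaps between the groups.

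Genes around these members were read from the same fit, by lists of each pathway. Beside the counts of each list stand the shares of all genes, of which 35.6% were higher, 34% lower and, leukocyte-scaled, 78.7% higher. Some list genes passed the filter on low counts only through the group where they were high, so their calls do not test direction. Among them are Epha2, Eda2r and Tnfrsf10b (0.0471, 0.0621 and 0.252 CPM in spNK) and Mycl (0.104 CPM in tuNK). Of 25 tested RAS regulators and effectors, 5 were higher and 15 lower, and their log2 fold changes had a median of -0.26 (leukocyte-scaled 19 higher, 1 lower and a median of 1.46). The share higher was 20%, below that of all genes, the share lower 60%, above it, and the leukocyte-scaled share higher 76%, near that of all genes. The RAS paralogue gene Mras rose to 18.1 ± 2.79 CPM in tuNK, against 0.652 ± 0.109 CPM in spNK, and Rras to 69.4 ± 5.93 CPM in tuNK, against 12.3 ± 1.38 CPM in spNK. The kinase genes Map2k1 (MEK1) and Mapk3 (ERK1) rose by 0.65 and 0.89 on the log2 scale. Rasgrp2, an exchange factor for Rap1, fell to 5.61 ± 1.11 CPM in tuNK, against 114 ± 10.8 CPM in spNK, and stayed lower leukocyte-scaled (-2.64). Rasgrp1, which loads RAS with GTP in lymphocytes, Rasa3, a GTPase-activating protein, and the adaptor Grb2 fell by 1.65, 1.34 and 0.98, but leukocyte-scaled Rasgrp1 was at 0.056 and not called, and Rasa3 and Grb2 were higher (0.39 and 0.73).

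Of 16 genes of the MYC network, 4 were higher and 9 lower, with a median of -0.65 (leukocyte-scaled 12 higher, 2 lower, median 1.06). These are 25% higher, 56.2% lower and, leukocyte-scaled, 75% higher, the last near the 78.7% of all genes. Mxd3, a MAX partner of the MAD family, rose by 2.45, and the ATPase genes Ruvbl2 and Ruvbl1 by 1.21 and 0.92. Mxi1 rose by 0.32. Mxd4, of the same family, fell by 2.22 and stayed lower leukocyte-scaled (-0.51). Max, the obligate partner of Myc, fell by 0.96, the glucose-sensing factor gene Mlxip by 0.87 and Fbxw7, which targets Myc for degradation, by 1.53, and leukocyte-scaled the first pair were higher (0.75 and 0.83) and Fbxw7 was not called (0.17). Of 35 MYC target genes, mostly of ribosome production, 32 were higher and 0 lower by edgeR, with a median of 0.90, beside 35.6% of all genes higher (leukocyte-scaled 35 higher, median 2.61). At an unadjusted p under 0.05 the number lower was also 0, as by DESeq2 and limma-voom, while 1 was lower with scaling by library size alone and on log2 TPM. The nuclear import gene Ipo4 stood at 147 CPM in tuNK and 28.9 CPM in spNK, a log2 fold change of 2.34 ± 0.15 (SE). Nop16, Grwd1 and Nop56, which act in ribosome assembly, rose by 1.83, 1.67 and 1.14.

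Of 16 p53 regulators, 4 were higher and 9 lower, with a median of -0.38 (leukocyte-scaled 12 higher, 1 lower, median 1.32). These are 25% higher, 56.2% lower and, leukocyte-scaled, 75% higher. Without tuNK 3, or with scaling by library size alone, 2 in place of 4 were higher. Sirt1, a deacetylase of p53, fell to 7.57 ± 0.934 CPM in tuNK, against 46.9 ± 2.49 CPM in spNK, and stayed lower leukocyte-scaled (-0.93). Ppm1d, a phosphatase that dampens p53, Ep300, which acetylates it, and Usp7, a deubiquitinase of p53 and Mdm2, fell by 1.45, 1.39 and 0.72, whereas leukocyte-scaled the first pair were not called (0.26 and 0.31) and Usp7 was higher (0.99). The checkpoint kinase gene Chek1, Trim28 and Cop1, a ubiquitin ligase for p53, rose by 0.66, 0.58 and 0.47.

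Of 29 tested p53 target genes, 15 were higher and 9 lower, with a median of 0.64 (leukocyte-scaled 25 higher, 3 lower, median 2.38). The share higher was 51.7%, beside 35.6% of all genes, and the share lower 31%, near the 34% of all genes. Leukocyte-scaled the share higher was 86.2%, beside 78.7% of all genes. The genes counted as higher include Epha2, Eda2r and Tnfrsf10b, whose calls do not test direction. Phlda3, an inhibitor of Akt signalling, stood at 161 ± 19.9 CPM in tuNK and 2.25 ± 0.933 CPM in spNK. Epha2, a receptor tyrosine kinase of epithelial and mesenchymal cells, stood at 180 ± 44.3 CPM in tuNK and at 0.0471 CPM in spNK, below the level of 3 counts per library. It passed the filter on low counts only through its tuNK libraries. The stress kinase gene Plk3 rose by 3.25 and the death effector gene Bax by 1.13. Trp53inp1, a stress protein gene, and Sesn1, which restrains growth signalling, fell by 3.74 and 2.72, Dcxr by 2.49, and all 3 stayed lower leukocyte-scaled (-2.02, -1.01 and -0.78). Ei24 fell by 0.77 but was higher leukocyte-scaled (0.95). Ccng1, a widely used p53 target gene named after its value was seen, had 162 CPM in tuNK and 165 CPM in spNK and a log2 fold change of -0.027 (adjusted p = 0.782). It was among the 5 tested genes of the list that were not called. Zmat3, Tigar and Aen, also named after their values were seen, rose by 1.11, 1.02 and 0.83.

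Of 23 genes of the INK4, CIP and RB axis, 10 were higher and 7 lower, with a median of 0.24 (leukocyte-scaled 19 higher, median 1.99). The shares of 43.5% higher, 30.4% lower and, leukocyte-scaled, 82.6% higher lie near those of all genes. The largest rise was in Ccnd1 (cyclin D1), at 663 ± 80.6 CPM in tuNK and 4.84 ± 0.779 CPM in spNK, while the lymphocyte-expressed Ccnd3 (cyclin D3) fell to 191 ± 27.7 CPM in tuNK, against 491 ± 56.4 CPM in spNK (leukocyte-scaled 0.34, higher). Cdk4, the target of the INK4 proteins and also in the MYC list, rose to 531 ± 64.4 CPM in tuNK, against 240 ± 40.1 CPM in spNK. E2f1 rose by 2.16 and Bmi1, a Polycomb gene known to repress Cdkn2a, by 0.78. The CIP gene Cdkn1b (p27), Rbl2 (p130) and E2f2 fell by 1.64, 1.48 and 1.55, but leukocyte-scaled they were not called (0.072, 0.24 and 0.16). The INK4 paralogues, named after their values were seen, moved apart: Cdkn2c was at 60.1 CPM in tuNK and 32.9 CPM in spNK (0.87), and Cdkn2d was at 60.2 CPM in tuNK and 90.8 CPM in spNK (-0.59, but higher leukocyte-scaled). These lists stood beside the mesenchymal marker sums of the tuNK libraries, whose part in them was not tested.

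**Figure D4:**
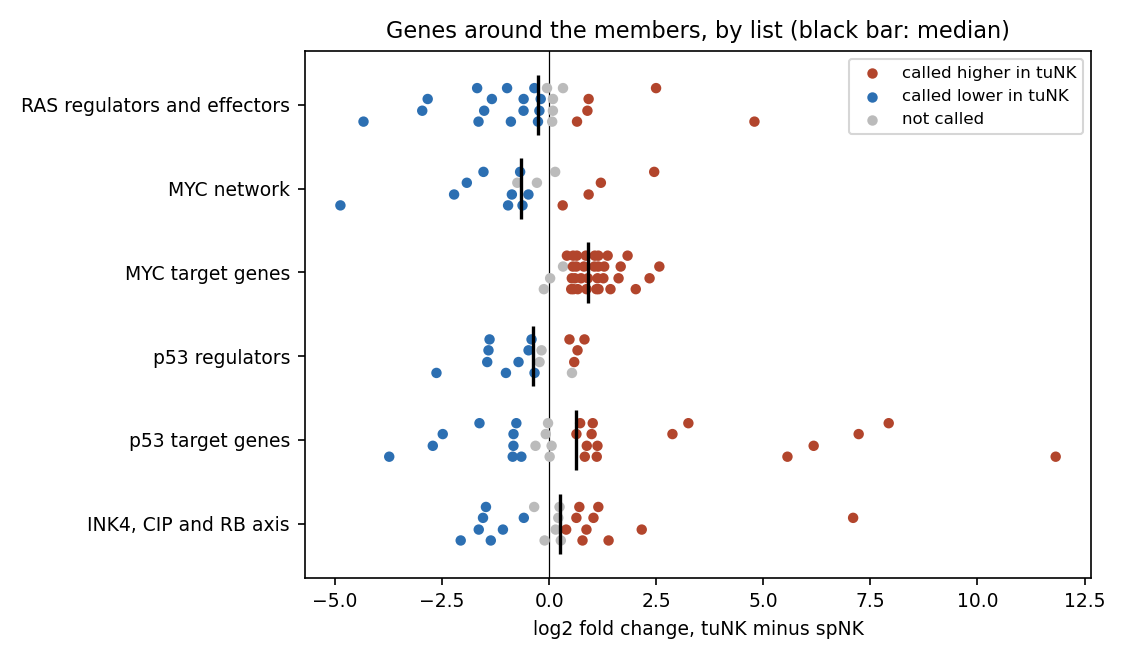
Log2 fold change (tuNK minus spNK, TMM-scaled) of each tested gene of 6 pathway lists, coloured by the edgeR call, with the median of each list as a black bar. MYC target genes lie almost all to the right of 0, with 32 of 35 called higher, while RAS, MYC network and p53 regulator genes lie on both sides.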

How the data were processed

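RNA of 8 sorted NK libraries was grouped by title into 4 tuNK and 4 spNK. Per the submitters' processing notes, FastQC 0.11.9, STAR and Salmon were used with GRCm38 (mm10). No source used here gives other versions, the annotation or how strand was set. The deposited tables hold estimated counts (not normalised) and TPM (length-scaled). Estimated counts, 7.9 to 8.82% of them not whole per library, were rounded.

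Genes were filtered with filterByExpr (14006 of 45706 kept), scaled with TMM and tested with the edgeR 4.0.16 quasi-likelihood test (robust, Benjamini-Hochberg, threshold 0.05) in R 4.3.3. CPM are TMM-scaled, and the standard error is the fold change over the square root of F. The common dispersion of 0.071 is a coefficient of variation of 0.266. On simulated data with these libraries, edgeR called 56% of 100 genes changed 2-fold and 24% of 100 genes changed 1.5-fold. Few of the 14006 genes changed there, unlike in these data, so these shares do not give the detection rate here. Ratios used exact permutation (scipy 1.17.1). Alternatives used DESeq2 1.42.0 and limma 3.58.1.

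The members, lists, tests and alternatives were chosen with earlier results of these data known. Named were all 9 members, up to 4 genes per list and direction by smallest adjusted p with groups that did not overlap, and 3 genes like each of the most changed pair. Of 146 list entries, 145 matched by symbol and 1 through the annotation. Positions are those of GENCODE M21 on GRCm38, and promoters those of RefSeq. The number of columns of sample values without a sample was 0.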

Additional observations from a re-analysis of the deposited data

Results flagged for a closer look

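In 1 of 28 groups of 4 values examined (the CPM of each gene and each ratio, by group), 1 sample lay far from the others. For Cdkn1a, tuNK 1 was at 294.1 CPM, beside 245, 238 and 242 CPM in tuNK 2, 3 and 4, and its gap to the nearest was 0.867 of the range of the group. Chance alone gives such a gap in about 1 group of 20.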

How the results depend on the processing

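Hras, Cdkn1a and Cdkn2b kept direction and call under every alternative that gave a value for them. Cdkn2b passed the filter on low counts only through spNK, so its call in the main fit does not test direction. With at least 1 CPM in 4 libraries, Cdkn2a and Cdkn2b dropped out, and 0 genes of the 9 were called lower. Leukocyte scaling called 11021 genes higher and 866 lower, and 8 of the 9 higher, and turned Braf (1.45) and Mdm2 (1.64) round. Scaling by library size alone called 3 of the 9 higher and 2 lower. On log2(TPM + 1) and log2(TPM + 0.1) 3 of the 9 were called, 3 higher and 0 lower, and without a TPM filter 3 were higher. Leaving out each library in turn called 9451 to 9907 genes (4754 to 5156 higher, 4549 to 4867 lower), 5 to 7 of the 9, 4 to 5 higher and 1 to 2 lower (2 without tuNK 3). Without both spNK 3 and tuNK 1, 9657 genes and 7 of the 9 were called, 2 of them lower. The added gene was Mdm2, for which these were the lowest spNK and the highest tuNK library.

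By estimated counts Hras to Nras was 0.53 (called). With 1 library left out, when 0.0571 is the smallest exact p, the differences of the log2 ratios were -0.012 to 0.13 for Hras to Nras (-0.012 without spNK 3), -1.30 to -0.89 for Braf to Nras, -0.83 to -0.49 for Mdm2 to Trp53, 3.92 to 4.39 for Cdkn1a to Trp53 and 4.67 to 5.01 for Cdkn1a to Mdm2. Without both libraries, where the smallest p is 0.1, they were -0.014, -1.24, -0.97, 3.78 and 4.74.

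Same-numbered libraries deviated together with r from -0.008 to 0.037 across genes, near 0, so the numbers were not taken as pairs. Yet 3 of 4 numbers matched best with themselves, so pairs are not excluded. With the replicate block 9555 genes and 5 of the 9 were called, without Myc (0.56, adjusted p = 0.0799), and by sign flips of the pairs, whose smallest p is 0.125, Braf to Nras (-1.13), Cdkn1a to Trp53 (4.20) and Cdkn1a to Mdm2 (4.81) were not called. The cause of these changes was not tested. Depth limits Cdkn2a and Cdkn2b, with at most 104 counts per library.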
